A study of Danio rerio with 18 samples.

Results

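Adult zebrafish ventricles were compared 3 days after cryoinjury, with and without deletion of tcf21, in 6 of the 18 poly(A) RNA libraries of the series. The 6 libraries were all those of the cryoinjury time point, 3 control and 3 conditional knock-out (cKO), and all 6 shared lane 4 of the sequencer. The remaining 12 came from ventricles that were uninjured or had been through a sham operation 3 days before, and they are used only to set the cryoinjury values beside. Fish of both arms were tcf21vln18/vln18, carried Tg(ubbR:CreERT2*)vln2 and carried TgBAC(tcf21:DsRed2)pd37. They were therefore homozygous for the floxed tcf21 allele, with a drug-inducible Cre that the ubiquitous ubbR promoter drives in all cells and with a red reporter under tcf21 regulatory sequence. The cKO fish spent 3 periods of 24 h in 5 µM 4-Hydroxytamoxifen, which activates this Cre, and were injured 12 days after the first of them. For the control fish the treatment field holds a dash, so exposure to the drug and loss of the gene cannot be told apart. RNA of 2 to 3 ventricles was pooled in each library. The labels state neither the time of day at which hearts were collected nor which fish shared a tank, and they do not say that the replicates came from separate experiments, so the p-values measure the spread between these libraries.

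Tcf21 is a basic helix-loop-helix transcription factor made in the epicardium, the mesothelial sheet that covers the heart, and in the fibroblasts that derive from it. After cryoinjury, a freeze wound that kills part of the ventricle, the zebrafish epicardium is activated, lays down matrix and releases signals, while inflammatory cells clear dead tissue and the surviving cardiomyocytes later divide. The first days are dominated by inflammation and by epicardial activation, before most of the muscle regrows.

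The targeted transcript was almost gone. tcf21 (ENSDARG00000036869) lies on chromosome 23 of GRCz11 at 31554269 to 31555696, on the minus strand. Its level was 16.7, 17 and 17.2 CPM (counts scaled to a common library size) in control replicates 1 to 3 and 1.02, 1.02 and 0.774 CPM in cKO replicates 1 to 3. The control libraries were nearly equal, and every cKO library lay far below them. The mean in cKO was 5.52% of control, and the log2 fold change of cKO minus control was -4.17 (standard error, SE, 0.18), with an adjusted p of 2.34e-05 by the quasi-likelihood test of edgeR with Benjamini-Hochberg adjustment over all genes tested. An exact permutation test of the levels (two-sided) had p 0.1, which is the lowest possible with 3 against 3. Coverage of exon 1 (31555115 to 31555696) was 5.12% of control and that of exon 2 (31554269 to 31554749) was 6.6% of control, so transcript was low over the whole gene.

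Totals lay between 107256750 and 177693687 estimated counts per library, and 19949 to 20784 genes had at least 1 count. The 13 mitochondrial genes took 11.7% to 17.6% of the counts. Control replicate 1 stood apart from the other libraries: it lay at -82.6 on the second principal component, which held 23.4% of the variance, against 5.1 to 42.3 for the rest. It had the lowest mitochondrial share, a summed level of 4480 CPM over 9 red blood cell genes against 932 and 1260 CPM in the other control libraries, and 13400 CPM over 29 genes of fibrillar collagens and their enzymes against 7820 and 7440 CPM. The cKO libraries held 1330, 3250 and 1200 CPM of the first sum and 10900, 11400 and 9410 CPM of the second. Their collagen sums thus lay between control replicate 1 and the other control libraries. On the first component, with 31.2% of the variance, the cKO libraries lay at -42.9 to -29.8, control replicates 2 and 3 at 62.8 and 61.3, and control replicate 1 at -11.4. Counts of called list members are therefore also given without control replicate 1 where it changed them.

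Among 19287 genes, 263 (1.36%) passed an adjusted p of 0.05 and are referred to as called. In cKO 196 of them (1.02% of the genes tested) were higher and 67 (0.347%) were lower. The control and cKO ranges did not overlap in any of the 263, against 4506 genes (23.4%) without overlap among all tested. A small p in these libraries favours genes without overlap, so this describes the calls and does not support them. At an unadjusted p under 0.05 there were 3357 genes (17.4%), 1739 higher (9.02%) and 1618 lower (8.39%). The median log2 fold change over all genes was -0.01, with 5% of genes under -0.83 and 5% over 0.95. The number of calls depended on the libraries and the model. Without control replicate 1 it was 1141 of 19771 (669 higher and 472 lower), and without any other single library 41 to 136. The Wald test of DESeq2 called 1242, and the fit of all 18 libraries called 1 gene, tcf21, of 20462 (0.00489%). List counts given without control replicate 1 are to be read beside these 1141 calls, which span all genes.

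**Figure D1:**
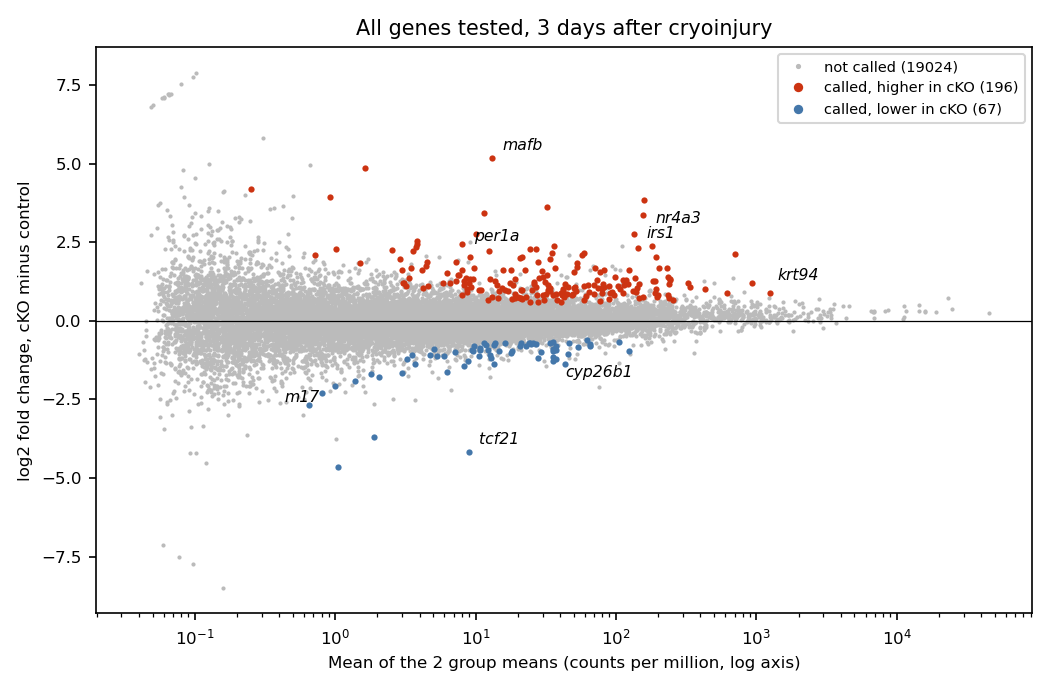
Log2 fold change of cKO minus control against the mean of both group means in CPM (log axis) for each of 19287 genes tested 3 days after cryoinjury. Red points are the 196 called genes higher in cKO, blue points the 67 called genes lower in cKO, and the labelled tcf21 lies at -4.17 and mafb at 5.18.

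Most of the transcriptome was bounded rather than merely not called. For 11744 genes (60.9%) the 95% interval of the log2 fold change lay wholly between -1 and 1, that is within a doubling or halving, and this number stayed between 10313 and 11888 under the alternatives that give intervals. Among the 764 genes of 32 lists on heart cell types and on injury biology, 445 were bounded in this way and 29 were called, 19 higher and 10 lower. Over all genes tested, 60.9% were bounded, 1.02% were called higher and 0.347% were called lower. The counts of list members below are to be read beside these shares. Of the 29, tcf21 and per1a were called whichever library was left out, and each of the rest lost its call in 1 to 5 of the 6 fits, with adjusted p-values of at most 0.181.

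The largest increases with a mean of at least 5 CPM included genes for transcription factors, for insulin signalling and for metabolic regulators. mafb, a bZIP transcription factor known from macrophages and other lineages, was measured at 0.152, 0.617 and 1.22 CPM in control and at 14.6, 10.6 and 51.3 CPM in cKO. It was close to absent in every control library and present in every cKO library, although the cKO libraries differed widely among themselves. Its log2 fold change was 5.18 (SE 0.83, adjusted p 0.0359), and the gene lost its call when control replicate 1 was left out (adjusted p 0.125). nr4a3, an orphan nuclear receptor of the immediate early class, stood at 39.1, 28.3 and 14.5 CPM in control and 386, 108 and 357 CPM in cKO. The lowest cKO library was above the highest control library, and the log2 fold change was 3.38 (SE 0.56, adjusted p 0.0375).

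Genes for adaptors of the insulin and insulin-like growth factor receptors rose together. irs1 was at 24.6, 26.5 and 52.5 CPM in control and at 205, 188 and 317 CPM in cKO (log2 fold change 2.77, SE 0.34, adjusted p 0.015). irs2b was at 54.7, 57.3 and 60.8 CPM in control and at 237, 243 and 433 CPM in cKO (2.40, SE 0.23, adjusted p 0.00331). Both genes were separated by a wide gap, and each remained called whichever library was left out. A related gene, irs2a, was named after its values were seen. It rose too, from 6.56, 13 and 18.5 CPM to 55.6, 44.9 and 72.1 CPM (2.17, SE 0.36, adjusted p 0.0367).

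Metabolic regulators stood among the same increases. ppp1r3aa, which encodes a glycogen-targeting subunit of protein phosphatase 1, rose from 1.67, 3.21 and 1.16 CPM in control to 30.8, 15.7 and 15.8 CPM in cKO (log2 fold change 3.42, SE 0.41, adjusted p 0.0131). pparab, a fatty-acid-sensing nuclear receptor that drives lipid oxidation genes, rose from 3.41, 2.29 and 1.73 CPM to 17.7, 8.36 and 14.6 CPM (log2 fold change 2.46, SE 0.33, adjusted p 0.0138). hif1al, a gene of the hypoxia-inducible factor family, was at 43.5, 41.4 and 57.7 CPM in control and at 213, 183 and 316 CPM in cKO (log2 fold change 2.32, SE 0.22, adjusted p 0.00331). The largest changes were named only among genes without overlap, so in none of these genes did a control library reach a cKO library.

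The other 5 of the 12 largest increases were zgc:122979 (log2 fold change 3.86), si:dkey-18a10.3 (3.62), the serine/threonine kinase gene stk35 (2.78), lmbr1l (2.39), and per1a (2.29), a hormone-inducible clock repressor. stk35 was among the most even, at 2.78, 2.04 and 2.77 CPM in control and 14.6, 14.6 and 23.7 CPM in cKO (SE 0.24, adjusted p 0.003). si:dkey-18a10.3, ppp1r3aa, stk35, irs1, irs2b, lmbr1l, hif1al and per1a were called in all 6 fits that left out a library. mafb, zgc:122979, nr4a3 and pparab were not, and lost their call in 4, 3, 5 and 3 of these fits.

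**Figure D2:**
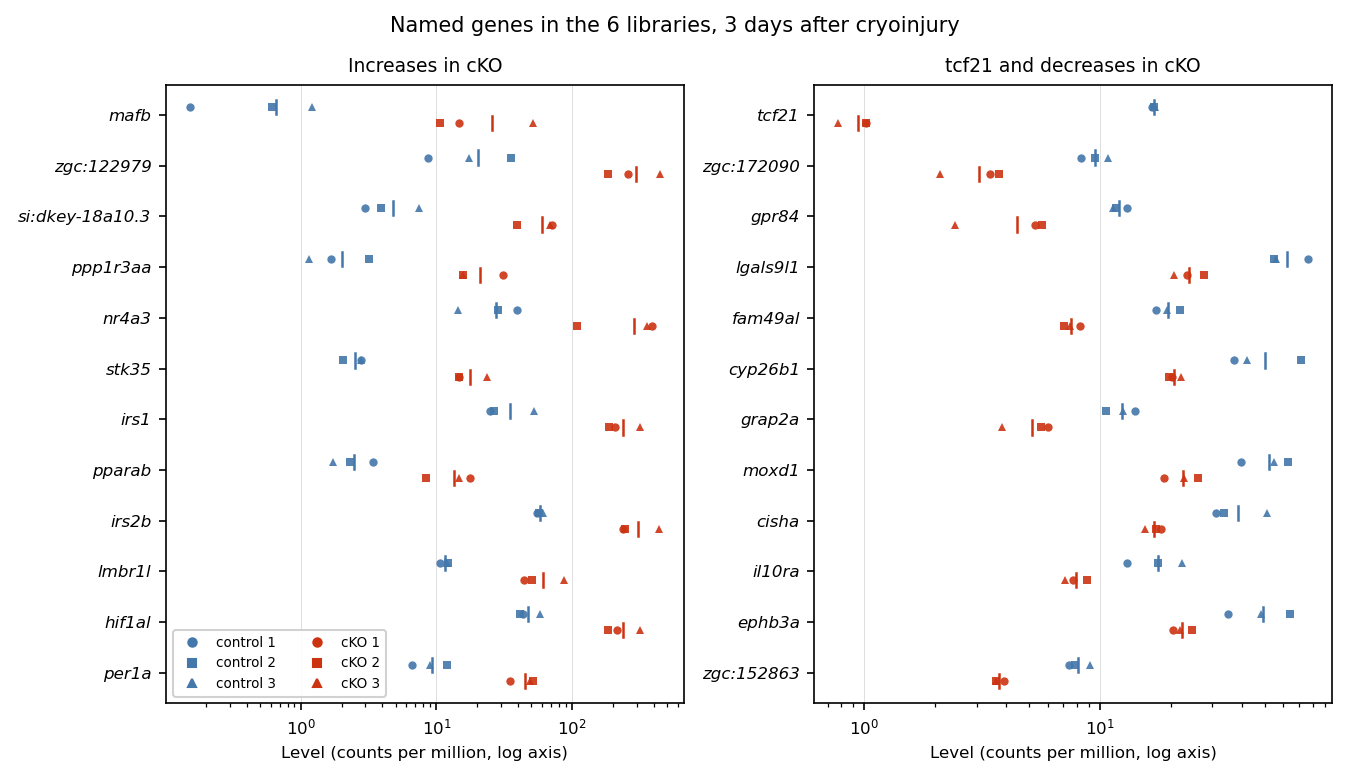
Level in CPM (log axis) of the 12 largest increases (left panel) and of tcf21 with the 11 other largest decreases (right panel) in each of the 6 libraries 3 days after cryoinjury. Blue symbols are control replicates 1 to 3, red symbols cKO replicates 1 to 3, and vertical strokes are group means. The genes shown were picked among those without overlap between the groups. The gaps are wider on the left than on the right, except for tcf21.

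Decreases other than tcf21 were smaller. The receptor gene gpr84, expressed on myeloid cells in mammals, was at 13.1, 11.7 and 11.4 CPM in control and at 5.29, 5.68 and 2.44 CPM in cKO (log2 fold change -1.42, SE 0.27, adjusted p 0.0378). il10ra, which encodes a receptor chain for the anti-inflammatory cytokine interleukin-10, was at 13, 17.6 and 22.4 CPM in control and at 7.72, 8.82 and 7.12 CPM in cKO (-1.17, SE 0.20, adjusted p 0.0318). grap2a, whose mammalian counterpart is an adaptor of lymphocyte receptors, was at 14.1, 10.6 and 12.5 CPM in control and at 6, 5.64 and 3.85 CPM in cKO (-1.26, SE 0.20, adjusted p 0.0229). By the same rule of naming, the highest cKO library was below the lowest control library in each. The margin was narrower than among the increases.

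lgals9l1, a galectin gene, fell from 76.8, 54.8 and 55.9 CPM to 23.5, 27.8 and 20.6 CPM, by 1.38 in log2 units (SE 0.17, adjusted p 0.00875). cisha, a gene of the SOCS family of cytokine feedback inhibitors, fell from 31, 33.7 and 51.1 CPM to 18.2, 17.3 and 15.5 CPM, by 1.19 (SE 0.19, adjusted p 0.0228). fam49al fell from 17.3, 21.9 and 19.2 CPM to 8.25, 7.05 and 7.44 CPM, by 1.36 (SE 0.15, adjusted p 0.00612), and was the only decrease besides tcf21 among the named ones to be called whichever library was left out. The remaining named decreases were zgc:172090 (-1.62), cyp26b1 (-1.27), moxd1 (-1.21), the Eph receptor gene ephb3a (-1.14) and zgc:152863 (-1.13), with adjusted p-values of 0.015 to 0.0352. Apart from fam49al, each of these decreases lost its call in 1 to 5 of the 6 fits without a library, with adjusted p-values of at most 0.148.

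Further called genes, outside the naming rule and picked after their values were seen, are given as single values and not as a group. The plastin gene lcp1 was at 139, 128 and 122 CPM in control and 85.2, 81 and 76.9 CPM in cKO (log2 fold change -0.68, SE 0.11, adjusted p 0.0253), with close agreement within each arm. The tyrosine kinase genes hck and syk stood at -0.95 and -0.69, the phosphatase gene ptpn6 at -0.91 and the GTPase gene rac2 at -0.70, with adjusted p-values of 0.0184 to 0.0364. Being picked from the called genes, they are not evidence about any cell type. For any gene in bulk tissue, fewer cells that express it and less RNA per cell cannot be told apart.

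Most macrophage genes had values below control, and few of them were called. Of 33 tested, mafb was called higher and f13a1b, a coagulation factor XIII subunit gene of macrophages, was called lower, at 69.3, 83.2 and 93.9 CPM in control and 46.1, 45 and 51.3 CPM in cKO (log2 fold change -0.79, SE 0.14, adjusted p 0.0298). Over all genes 1.02% were called higher and 0.347% lower. The list's median was -0.40 against -0.01 over all genes, with 26 members below 0 and 9 of the 33 wholly below control, against 2275 genes (11.8%) among all tested. The complement genes c1qa, c1qb and c1qc, made by tissue macrophages, gave -0.49, -0.40 and -0.43, with adjusted p-values of 0.0904, 0.157 and 0.151. csf1ra, the receptor gene that macrophages need for survival, was at 38.5, 30.2 and 33.4 CPM in control and at 31, 35.9 and 27.5 CPM in cKO. Those ranges overlapped, and the 95% interval of its log2 fold change was -0.43 to 0.20. Leaving out control replicate 1, f13a1b, c1qa, c1qb, c1qc, grna and spi1a were called lower, 6 of the 33, and no member was called higher. Without any other single library none was called lower and at most 1 higher.

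No T cell or natural killer cell gene was called, although the 19 tested had the lowest median of any list, -1.01, and 17 of them were below 0. il2rb, a cytokine receptor chain of these cells, was at 1.64, 5.29 and 6.13 CPM in control and at 0.732, 0.503 and 1.18 CPM in cKO (log2 fold change -2.47, adjusted p 0.0579). The kinase gene zap70 was at 0.847, 1.77 and 2.33 CPM in control and 0.504, 0.669 and 0.489 CPM in cKO (-1.58, adjusted p 0.112). In both genes control replicate 1 was the control library nearest to cKO. Without it 5 of 21 were called lower, il2rb, zap70, sla2b, gzm3 and gzmk. Low values in cKO were not limited to cryoinjury. After sham the list's median was -1.15, with 16 of 18 below 0. In uninjured ventricles it was -0.25, with 12 of 18 below 0, and neither condition gave a call. il2rb gave -1.96 after sham and -2.44 uninjured.

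Neutrophil and acute cytokine genes (24 tested, median -0.47), B cell genes (9 tested, -0.49), antigen presentation genes (16 tested, -0.11) and interferon response genes (27 tested, 0.11) had no called member. Most of the first of these were low and poorly bounded, with 5 of 24 intervals inside -1 to 1, while 13 of the 16 antigen presentation genes were bounded. When control replicate 1 was left out, the call counts became 1 lower, 2 lower, 2 lower, and 4 higher with 1 lower.

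Among 20 interleukin and Stat3 genes 1 was called, against 1.36% of all genes. m17, the leukaemia inhibitory factor-like cytokine gene of fish, fell from 1.68, 1.53 and 1.57 CPM to 0.393, 0.258 and 0.521 CPM, by 2.06 in log2 units (SE 0.35, adjusted p 0.0277). The list's median was -0.24. The related cytokine genes il6 and il11a gave -2.31 (adjusted p 0.0836) and -1.82 (adjusted p 0.152), and the feedback inhibitor gene socs3b gave -0.78 (adjusted p 0.206). stat3 itself was at 75.6, 42.7 and 59 CPM in control and at 75.7, 67.4 and 59.1 CPM in cKO, overlapping over most of the range. Without control replicate 1, lifra (1.43) and il11ra (0.82), which encode cytokine receptor chains, were called higher beside m17 lower, and without any other single library no member was called.

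Most other epicardial markers were not called. Besides tcf21, krt94, an epicardial keratin gene of zebrafish, was called among 25 genes tested, against 1.36% of all genes. krt94 was higher in cKO, at 930, 877 and 798 CPM in control and at 1290, 1720 and 1840 CPM in cKO (log2 fold change 0.90, SE 0.17, adjusted p 0.041). aldh1a2, the retinoic acid synthesis gene that marks activated epicardium, was at 350, 256 and 268 CPM in control and at 243, 311 and 240 CPM in cKO, with a 95% interval of -0.51 to 0.23. tbx18, another epicardial transcription factor gene, was at 38.9, 25.5 and 17.7 CPM in control and at 33.9, 31.5 and 19.5 CPM in cKO, with an interval of -0.64 to 0.75. In both genes the ranges of the arms overlapped, though 2 of the 3 cKO libraries lay below all controls for aldh1a2. In the list 18 of the 25 were bounded, against 60.9% of all genes, and the median was 0.06. wt1b was higher in control replicate 1 (29.4 CPM) than in all other libraries (8.27 and 10.2 CPM in control, 16.3 to 18.6 CPM in cKO), and without that replicate it was called higher in cKO (0.90, adjusted p 0.0115), as was cldn11a (1.59), while nr2f2 was called lower (-0.47).

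Collagen and matrix genes were not called with all 6 libraries. Of 29 genes for fibrillar collagens and their enzymes 19 were bounded, against 60.9% of all genes, and the median was 0.13. col1a1a stood at 2990, 1740 and 1760 CPM in control and at 2560, 2760 and 2300 CPM in cKO, with a 95% interval of -0.28 to 0.74. The fibroblast matrix genes dcn and lum gave intervals of -0.22 to 0.47 and -0.42 to 0.90, and the fibroblast receptor gene pdgfra one of -0.64 to 0.11. In col1a1a the cKO libraries fell between control replicate 1 above and control replicates 2 and 3 below.

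The matrix result rested on that control library. Without control replicate 1 the median of the fibrillar collagen list became 0.43, against 0.009 over all genes. In that fit 3 members were called higher, the crosslinking enzyme genes loxl2a (log2 fold change 1.78) and loxl2b (0.69), and col6a1 (0.61). Over all 19771 genes tested, the same fit called 669 higher and 472 lower, so calls rose well beyond the matrix lists. Among 30 provisional and non-collagen matrix genes, none called with all libraries, postnb, sparc, thbs1b, lum, fn1b and bgnb were called higher without it and hapln1a lower. Among 20 basement membrane genes, none called with all libraries, the collagen IV genes col4a1 (1.40), col4a2 (0.82) and col4a5 (1.59), with hspg2, lamc1 and lama4, were called higher without it. col4a1 was at 86.2, 36.7 and 34.5 CPM in control and at 92.2, 104 and 84 CPM in cKO, so that control replicate 1 lay among the cKO libraries and the other control libraries lay below all of them. Matrix proteases and their inhibitors (18 tested, median -0.17) had no called member, and mmp2 alone was called, higher, without that replicate.

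Of 35 genes of the actin cytoskeleton and adhesion, the machinery of cell protrusion and contact, none was called and 31 were bounded. Their log2 fold changes ran from -0.53 to 0.51 with a median of -0.05. cdh2, the cadherin gene of cardiomyocyte junctions, was at 929, 834 and 773 CPM in control and at 781, 801 and 804 CPM in cKO, with a 95% interval of -0.39 to 0.22. ctnnb1, its partner, had an interval of -0.50 to 0.19. Leaving out control replicate 1 gave 4 calls, all higher in cKO, flnb, zyx, itgav and vclb, at 0.51 to 0.63.

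Contractile genes of cardiomyocytes all had higher values in cKO, and none was called. All 16 tested were above 0, the median was 0.47, and 7 were wholly above control, against 2231 genes (11.6%) among all tested. Their summed level was 56300, 68400 and 72400 CPM in control and 103000, 81000 and 97200 CPM in cKO, without overlap. myh7, the ventricular myosin heavy chain gene, was at 14600, 17600 and 20100 CPM in control and at 34000, 24000 and 28900 CPM in cKO (log2 fold change 0.73, SE 0.23, adjusted p 0.152). The median was 0.38 without control replicate 1, and casq2 was called. The Wald test of DESeq2, which called 1242 of all genes, called 7 of the 16 higher. Called genes of the same structures outside the list, named after their values were seen, were tcap (1.68), lmod2b (1.21), lmod3 (1.21), nrap (0.84), trdn (0.85), obscnb (0.89) and myoz2a (1.36), with adjusted p-values of 0.00331 to 0.0364. They were picked from the called genes, so they are single values and not evidence about contractile genes as a set. Genes of these structures that were not called were not counted. lmod2b, which encodes a leiomodin of the thin filament, was at 164, 204 and 223 CPM in control and at 534, 372 and 462 CPM in cKO, well apart.

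Genes of cardiomyocyte stress and dedifferentiation gave no call among 18, and 15 were bounded. nppa, a natriuretic peptide gene induced in stressed muscle, was at 2790, 3620 and 3310 CPM in control and at 2700, 3030 and 2610 CPM in cKO, with an interval of -0.60 to 0.16 and overlapping arms. Without control replicate 1 the transcription factor gene runx1 was called higher (1.06).

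Cell cycle genes gave no call among 31 either, with 26 bounded and a median of -0.21. Of the 31, 23 were below 0, 5 had an unadjusted p under 0.05, all lower, and 8 lay wholly below control, against 11.8% of all genes. hmgb2a, a chromatin protein gene of dividing cells, was at 246, 237 and 272 CPM in control and at 190, 202 and 225 CPM in cKO, without overlap (log2 fold change -0.29, SE 0.13, adjusted p 0.268). pcna, a replication clamp gene, stood at 180, 151 and 144 CPM in control and at 141, 147 and 210 CPM in cKO, with an interval of -0.32 to 0.45, and its arms overlapped. The list's median was -0.05 without control replicate 1.

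Most genes of oxidative phosphorylation and glycolysis had higher values in cKO, and none was called. All 31 nuclear genes of oxidative phosphorylation tested were above 0, with a median of 0.39 and a range of 0.20 to 0.61, and all 31 were bounded. Of these, 22 lay wholly above control, against 11.6% of all genes. Their summed level was 9510, 11100 and 11500 CPM in control and 15400, 12300 and 14600 CPM in cKO. The 31 glycolysis genes were less even: 27 were above 0 and 4 below, with a median of 0.47 and a range of -0.73 to 1.22, and the summed level of 26200 CPM in cKO replicate 2 equalled that of control replicate 3. Without control replicate 1, cycsb (0.51) and ndufv1 (0.57) of the oxidative genes and ldha (0.85) and aldocb (0.66) of the glycolytic ones were called higher. The Wald test of DESeq2, which called 1242 of all genes, called 9 oxidative genes higher. Of the glycolytic genes it called 11 higher and 1 lower. Sarcomere, oxidative and glycolytic genes are all abundant in cardiomyocytes, and the part of cardiomyocyte share in these differences was not tested.

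In the list of 28 fatty acid oxidation genes the called ones were regulators rather than enzymes. These were pparab, given above, and ppargc1a, a coactivator of mitochondrial biogenesis, at 16.6, 12.8 and 13.3 CPM in control and 33.9, 25.3 and 26.7 CPM in cKO (log2 fold change 1.00, SE 0.16, adjusted p 0.0221). Both were without overlap, as is every called gene. Over all genes 1.02% were called higher. The median of the list was 0.24, and 24 of the 28 were bounded. Both calls held without control replicate 1, and without any other single library 0 to 2 members were called.

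**Figure D3:**
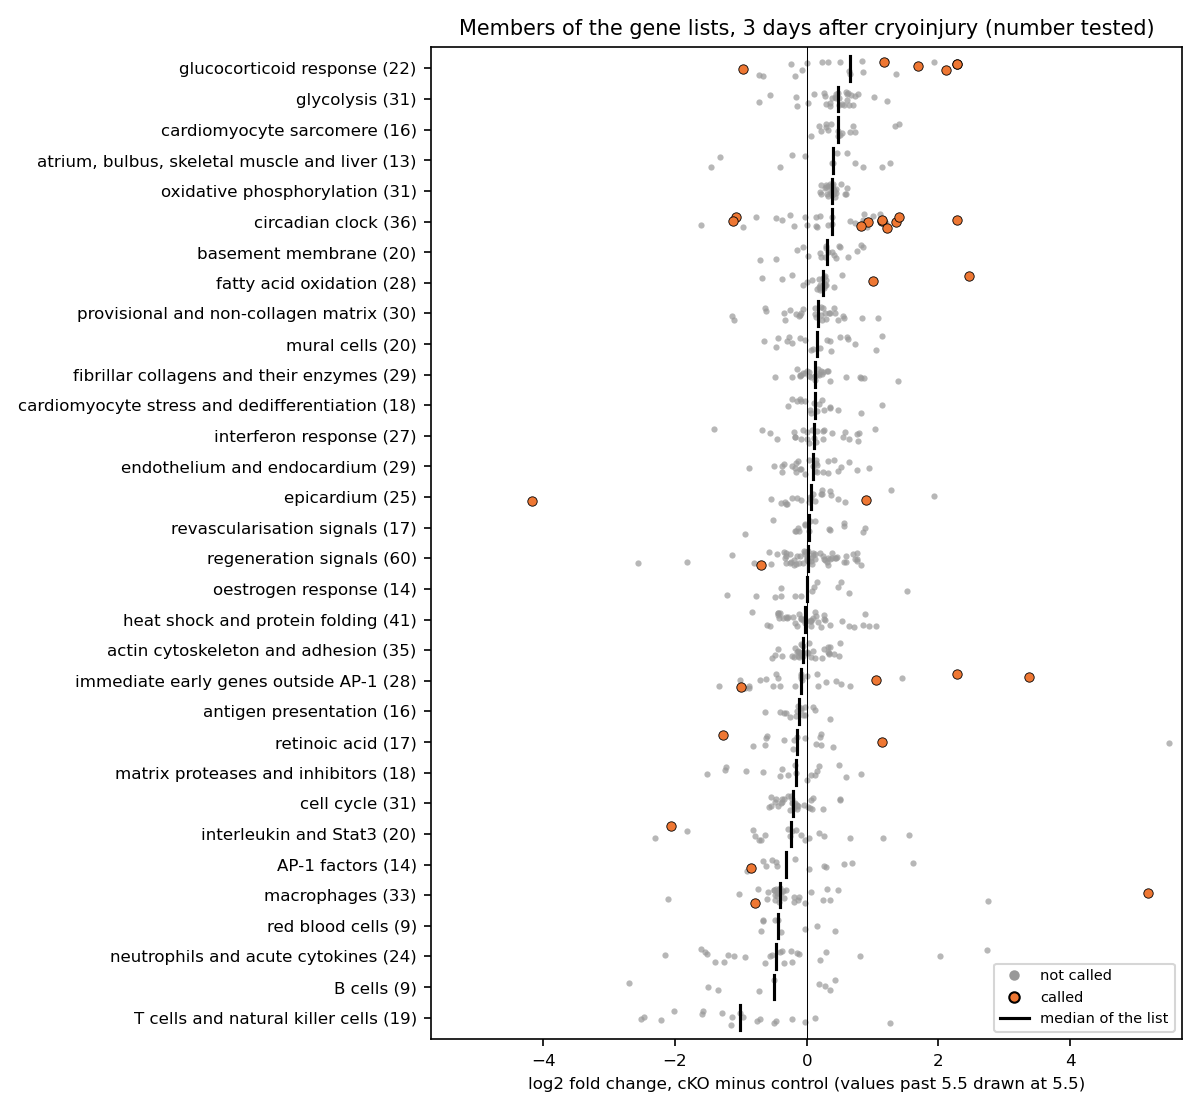
Log2 fold change of cKO minus control 3 days after cryoinjury for each tested member of 32 gene lists, ordered by the list's median (black stroke), with the number tested in brackets. Orange points are called genes and grey points are not called. A retinoic acid gene at 7.54, not called, is drawn below its value near the right edge. Calls gather in the circadian clock and glucocorticoid lists, all oxidative phosphorylation genes lie between 0.20 and 0.61, and the T cell list has the lowest median, -1.01.

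The circadian clock list held the most calls. This clock is a transcriptional loop in which Clock and Bmal proteins switch on per and cry genes, whose products shut them down again, with further arms through D-box and Rev-erb response elements. Of 36 genes tested 8 were called higher and 2 lower, against 1.02% and 0.347% of all genes. Of the 8 increases, 6 were in repressor genes of the loop: per1a, per2, per3, cry1b, ciarta and ciartb. The repressor genes cry2, bhlhe41 and per1b were not called with all 6 libraries (adjusted p 0.0518, 0.0899 and 0.121) and were called without control replicate 1. per2, a light-induced one, was at 59.7, 70.9 and 81.6 CPM in control and at 163, 132 and 172 CPM in cKO (log2 fold change 1.14, SE 0.15, adjusted p 0.0138). per3 was at 62.7, 67.3 and 64.8 CPM in control and at 113, 141 and 118 CPM in cKO (0.93, SE 0.12, adjusted p 0.0123), with almost no spread among controls.

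per1a was at 6.64, 12 and 9.04 CPM in control and at 34.8, 51 and 49.2 CPM in cKO, with an adjusted p of 0.00374. cry1b rose from 10.3, 15.8 and 21.2 CPM to 36.5, 37.3 and 48.4 CPM (log2 fold change 1.36, adjusted p 0.0351), and ciarta and ciartb, genes for further repressors, rose by 1.40 and 1.22. The activator gene bmal1a went the other way, from 15.3, 19.2 and 16.8 CPM to 9.9, 7.29 and 7.28 CPM (log2 fold change -1.07, SE 0.17, adjusted p 0.0221). The arms were separated in all of these genes, as in every called gene.

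Output genes that act on D-box elements changed as well. The activators dbpa and hlfa rose, dbpa from 10.2, 7.94 and 8.47 CPM to 19.4, 18.3 and 20.9 CPM (log2 fold change 1.14, SE 0.15, adjusted p 0.0108) and hlfa by 0.82. nfil3-5, of the family of the opposing repressor, fell from 10.2, 16.1 and 17.2 CPM to 5.67, 7.4 and 6.91 CPM, by 1.12 (SE 0.22, adjusted p 0.041). The list had 12 genes called higher and 4 lower without control replicate 1, and in the fits without any other single library 1 to 6 higher and 0 or 1 lower, per1a being called in all. The hour at which the hearts of either arm were taken is not in the labels.

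Glucocorticoid response genes, a list that shares per1a with the clock, came next in calls. Of 22 tested, 5 were called higher and 1 lower, against 1.02% and 0.347% of all genes, and the median was 0.66. Besides per1a, the called increases were fkbp5, a chaperone that dampens the receptor, and the transcription factor genes klf9, foxo3b and zbtb16a. fkbp5 was at 307, 346 and 136 CPM in control and at 852, 1030 and 1540 CPM in cKO (log2 fold change 2.12, SE 0.36, adjusted p 0.0359). klf9 was at 5.65, 9.94 and 9.64 CPM in control and at 30.9, 31.2 and 60.4 CPM in cKO (2.28, SE 0.32, adjusted p 0.0203). For both, cKO replicate 3 was the highest library, and no cryoinjured control library came near the cKO range. Uninjured control varied widely, at 181 to 2340 CPM for fkbp5 and 6.51 to 152 CPM for klf9 in the scaling of all 18 libraries. In that scaling cryoinjured cKO held 747 to 1360 CPM and 27 to 53.3 CPM.

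foxo3b, a factor that insulin signalling inactivates, rose from 99, 67.7 and 121 CPM to 327, 241 and 363 CPM (1.69, SE 0.23, adjusted p 0.0138). The transcription factor gene cebpb, called lower, was at 121, 177 and 197 CPM in control and at 80, 94 and 79.6 CPM in cKO (-0.97, SE 0.18, adjusted p 0.0364). The count depended on the libraries: without control replicate 1, 4 of the 22 were called higher, fkbp5 and zbtb16a not among them, and 2 lower. Without control replicate 3, 6 were called higher, without cKO replicate 2, 3, and without control replicate 2, cKO replicate 1 or cKO replicate 3, 2 each, with 0 lower in all of these. The summed level of the list was 1650, 2460 and 2250 CPM in control and 3440, 3920 and 5500 CPM in cKO, without overlap.

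**Figure D4:**
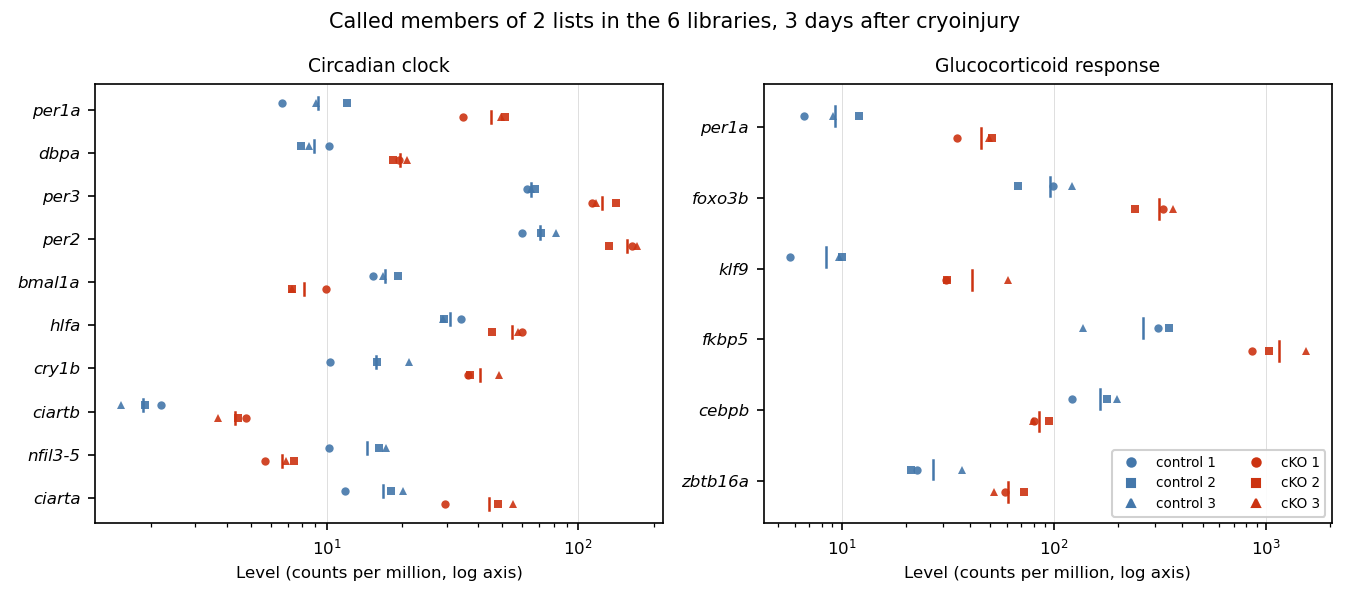
Level in CPM (log axis) of the 10 called circadian clock genes (left panel) and the 6 called glucocorticoid response genes (right panel) in each of the 6 libraries. Blue symbols are control and red symbols cKO replicates, with strokes at the group means. bmal1a, nfil3-5 and cebpb lie lower in cKO and the others higher, and no gene overlaps between the arms, as in every called gene.

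Immediate early genes, which cells switch on within minutes of a stimulus, went in both directions. Of 28 outside the AP-1 family 3 were called higher, nr4a3, klf9 and csrnp1b, and 1 lower, egr1, with a median of -0.09. Over all genes 1.02% were called higher and 0.347% lower. The klf9 call is the one already counted in the glucocorticoid list. egr1 was at 36.1, 46.5 and 33.8 CPM in control and at 21.2, 19.9 and 17 CPM in cKO (log2 fold change -1, SE 0.15, adjusted p 0.0203). csrnp1b was at 39.5, 30.3 and 29.2 CPM in control and at 55.6, 61.6 and 88 CPM in cKO (1.05, SE 0.19, adjusted p 0.0355). Among 14 AP-1 genes junbb was called, at 72, 61.7 and 73.6 CPM in control and 42.7, 37.9 and 35.5 CPM in cKO (-0.84, SE 0.12, adjusted p 0.0184), and its paralogue junba gave -0.62 with an adjusted p of 0.0504. With control replicate 1 left out, 7 immediate early genes were called lower and 2 higher, and among AP-1 genes junbb and junba were called lower and atf3 higher. Without any other single library 0 to 2 immediate early genes were called higher and 0 or 1 lower, and no AP-1 gene was called.

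In retinoic acid metabolism and signalling the called pair, among 17 genes, were the breakdown enzyme gene cyp26b1 and the receptor gene rarga. Over all genes 1.02% were called higher and 0.347% lower. The largest log2 fold change of the list, 7.54, was in another gene, which was not called. cyp26b1 was at 37, 71.1 and 42.1 CPM in control and at 20.2, 19.7 and 22.2 CPM in cKO (-1.27, SE 0.23, adjusted p 0.0352), even in cKO and uneven in control. rarga was at 20.6, 17.4 and 23 CPM in control and at 49.6, 34.3 and 51.6 CPM in cKO (1.15, SE 0.18, adjusted p 0.0203). The synthesis gene aldh1a2 was bounded, as given above. Without control replicate 1, rdh10a (-0.74) and dhrs3b (-0.64), genes of retinol and retinal metabolism, were called lower beside cyp26b1. Without any other single library cyp26b1 was not called, and rarga lost its call in 3 of the fits.

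The 60 secreted signals, receptors and targets grouped as regeneration signals gave 1 call, the BMP target id2a, at 28.2, 31.8 and 28.7 CPM in control and 19.4, 18.9 and 16.5 CPM in cKO (log2 fold change -0.69, SE 0.12, adjusted p 0.034). That call was lost when any library other than control replicate 1 was left out, with an adjusted p of at most 0.159. Without control replicate 1, igfbp5b (0.81), which encodes a binding protein of insulin-like growth factors, the receptor gene erbb2 (0.98) and the ligand gene tgfb2 (0.70) were called higher as well. The median of the 60 was 0.02 with all libraries and 0.17 without that replicate, and 36 were bounded. Over all genes 60.9% were bounded and 1.36% were called. The 17 revascularisation genes gave no call, and 1 without control replicate 2. Among them, apln was at 147, 256 and 212 CPM in control and 198, 165 and 200 CPM in cKO (interval -0.56 to 0.31), and vegfab had an interval of -0.31 to 0.98. In apln the arms overlapped.

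No gene of vessel or mural cells was called with all 6 libraries. Of 29 endothelial and endocardial genes none was called and 21 were bounded, and cdh5, the vascular cadherin gene, gave an interval of -0.11 to 0.41. kdrl, a receptor gene for vascular endothelial growth factor, was at 95.2, 122 and 126 CPM in control and 174, 153 and 211 CPM in cKO (0.65, adjusted p 0.0887), without overlap. Of 20 mural cell genes none was called, and pdgfrb gave an interval of -0.27 to 0.41. Calls without control replicate 1 were higher for 3 endothelial genes, kdr, notch1b and prox1a, and for 1 mural gene, cspg4.

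Heat shock and protein folding genes (41 tested, median -0.02) and genes listed for the response to oestrogen receptor ligands (14 tested, median 0.00) had no called member. Only 7 of the 14 oestrogen response genes were bounded, and their log2 fold changes ran from -1.21 to 1.53. Whether the drug changed these genes was not tested. The heat shock genes bag3, hsp90aa1.1, hsf2 and hspb8 were called higher without control replicate 1. Red blood cell genes (9 tested) were unbounded. hbaa1, an alpha globin gene, ranged from 539 to 2480 CPM in control and from 759 to 2090 CPM in cKO. Markers of atrium, bulbus arteriosus, skeletal muscle and liver gave no call among 13 tested, the liver genes fabp10a and apoa2 did not exceed 0.0726 and 0.182 CPM, and the atrial myosin gene myh6 was at 73.9, 26.8 and 47.3 CPM in control and 193, 88.4 and 45.7 CPM in cKO.

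The same contrast in the other conditions, which share no library with the cryoinjury contrast, placed these values. After sham, cKO minus control had the sign it had after cryoinjury in 241 of the 262 called genes tested in both (92%), against 65.6% of all genes, and with 181 of 196 for genes called higher and 59 of 65 for genes called lower other than tcf21. Among the called clock, glucocorticoid and immediate early genes, per2 (-0.33), nfil3-5 (0.62), zbtb16a (-0.28) and egr1 (1.27) had the opposite sign after sham, without a call. The other called members of these lists kept their sign, cebpb barely (-0.01). In uninjured ventricles cKO minus control had the same sign as after cryoinjury in 80 of 261 (30.7%), against 50.8% of all genes. The tests of these conditions, each on its own 6 libraries, called 47 of 18899 genes after sham, 3 of them in the cryoinjury set, and 0 of 18241 in uninjured ventricles. In the uninjured test tcf21 itself was not called (log2 fold change -3.52, adjusted p 0.352). The lack of calls in uninjured ventricles therefore does not show that genes were unchanged. Lane was not balanced in these conditions: lane 2 held every library of uninjured control and the first 2 of sham control. Every cKO library was in lane 4, so cKO and lane cannot be told apart in uninjured ventricles.

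irs2b is an example. Its mean level in the scaling of all 18 libraries was 386 CPM (SD 374, range 50.5 to 789, n = 3) in uninjured control, 34 CPM (28.8 to 40.8) in sham control and 50.7 CPM (48 to 53.6) in cryoinjured control. In cKO it was 256 CPM (148 to 400) uninjured, 383 CPM (130 to 575) after sham and 268 CPM (207 to 382) after cryoinjury. After both procedures every control library was below every cKO library, while the lowest uninjured control library lay within the range of cryoinjured control. mafb was at 32.6 CPM (SD 26.3, range 2.81 to 52.7, n = 3), 0.497 and 0.583 CPM in control in the same order, and at 7.71 CPM (0.258 to 20.9), 21.3 and 22.5 CPM in cKO. Its cKO means were higher after both procedures than in uninjured ventricles, with overlapping ranges. Among the decreases, ephb3a was lower in cKO after sham too (log2 fold change -1.08, adjusted p 0.0235). gpr84, at 3.24 CPM in sham control and 10.6 CPM in cryoinjured control, gave 0.24 after sham (adjusted p 0.868) against -1.42 after cryoinjury. The difference between these effects of gpr84 was not called in the fit of all 18 libraries.

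**Figure D5:**
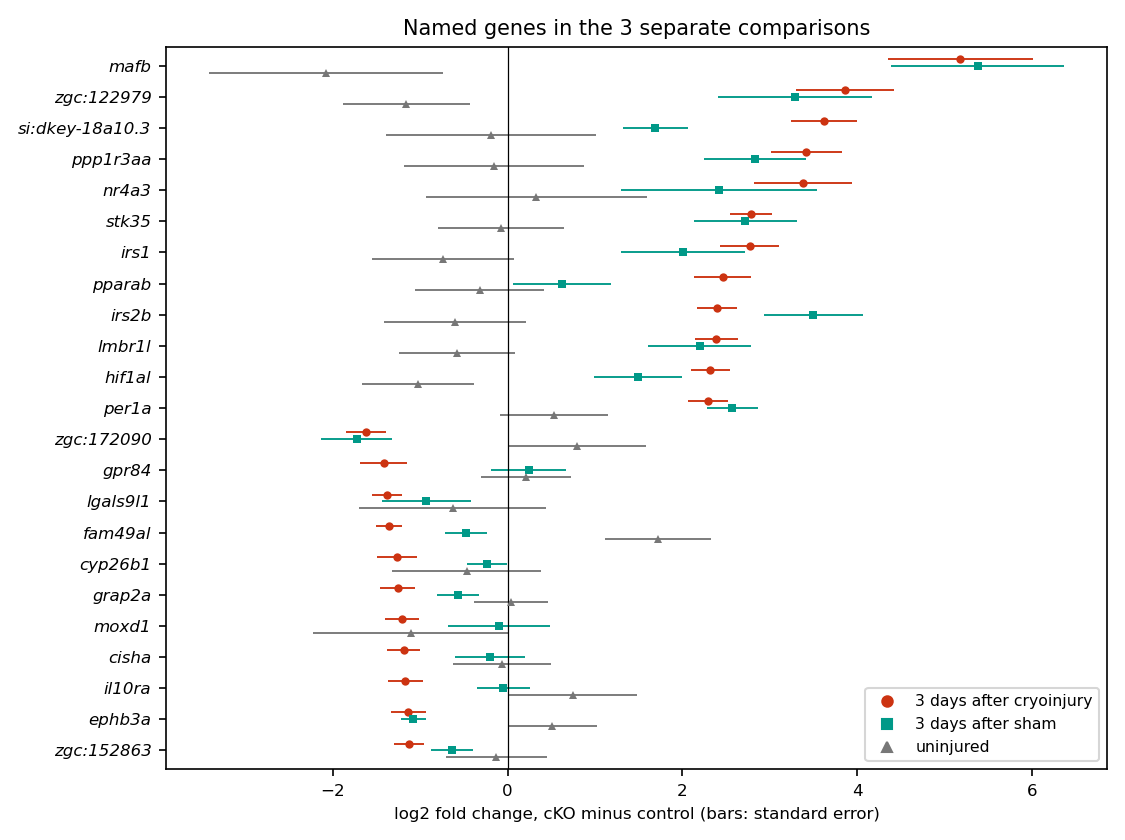
Log2 fold change of cKO minus control (points, with standard errors as bars) for the 12 largest increases and the 11 largest decreases other than tcf21 in 3 comparisons with no shared library. Red is cryoinjury, green sham and grey uninjured. The increases lie above 0 after sham as well and near or below 0 in most uninjured comparisons. Most of the increases, and the decreases except zgc:172090, lie nearer to 0 after sham than after cryoinjury. The genes were picked for the size of their change after cryoinjury.

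Tested directly in the fit of all 18 libraries, the difference between the cKO effect after cryoinjury and that after sham was called in 1 of 20462 genes (0.00489%), TNC, with 610 (2.98%) at an unadjusted p under 0.05. The difference between cryoinjury and uninjured was called by edgeR in 0 genes (0%), with 2384 (11.7%) at an unadjusted p under 0.05 and 328 called by the Wald test of DESeq2. For mafb that difference was 7.25 (SE 1.88, adjusted p 0.178). The uninjured arms differed in lane as well as in cKO, so this contrast cannot tell the 2 apart. An effect of tcf21 loss particular to cryoinjury was therefore not shown for any of the named genes.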

How the data were processed

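Each gene has an estimated count per library, which the authors rounded and deposited without scaling for depth. Per the submitters' processing notes FastQC 0.11.9, Trim Galore 0.6.10, HISAT2 2.1.0, StringTie 2.1.1 and GRCz11 were used, and per the file headers the annotation was Ensembl's. Other values of the deposited library files (coverage, FPKM and TPM) served only to check that 1 count stands for 75 aligned bases and to read exon coverage. The spread between replicates, not counting error, sets the precision.

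Symbols (23499 of 25107 genes) came from the supplied gene tables, RefSeq GRCz12tu being used for names only. Coordinates are those of GRCz11.

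Genes were filtered with filterByExpr by group (minimum count 10), scaled by TMM and tested in edgeR 4.0.16 under R 4.3.3 by quasi-likelihood (robust option, two-sided) on the 6 libraries, with Benjamini-Hochberg adjustment over all genes and a threshold of 0.05. CPM use TMM library sizes. Standard errors were back-calculated from the F statistic, and 95% intervals follow from them. Differences between effects were contrasts of group means in 1 fit of 18 libraries. Limma 3.58.1 (voom) and DESeq2 1.42.0 were alternatives, beside other scaling, no filter, a replicate block, lane and leaving out each library. The test was checked on simulated counts.

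Genes named are tcf21, the 12 largest increases and 12 largest decreases (tcf21 among them) among called genes that average 5 CPM or more and have a symbol and no overlap between groups, and the called members of each list or up to 3 of its most abundant members. Others are introduced as such, or given as markers or as the members nearest to a call. The comparison, the lists and the rule were chosen with earlier results of these data known. Same-numbered replicates were not paired: their deviations correlated at 0.08, -0.044 and 0.05.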

Additional observations from a re-analysis of the deposited data

Results flagged for a closer look

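TNC (ENSDARG00000021948), which encodes a tenascin, was the 1 gene whose cKO effect after cryoinjury differed from that after sham in the fit of all 18 libraries. The difference was 3.04 in log2 units (adjusted p 0.0377, edgeR). After cryoinjury it was at 14.3, 8.74 and 8.06 CPM in control and at 5.68, 7.48 and 3.40 CPM in cKO, below control in every library but not called (log2 fold change -0.90, SE 0.31, adjusted p 0.182). After sham the log2 fold change was -3.94. In the scaling of all 18 libraries, the means after sham were 69.9 CPM in control and 4.56 CPM in cKO. After cryoinjury they were 9.11 and 4.85 CPM, so the 2 procedures differed mainly in the control level. The difference kept its sign throughout but was not called with lane as a covariate (adjusted p 0.662), with a replicate block (0.0512), or, with a library removed, in 10 of 12 fits (up to 0.237). A second gene carries the same symbol in the tables, so the identifier decides. The cause was not tested.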

How the results depend on the processing

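The log2 fold change of tcf21 kept its direction and its call under every alternative, and the number of bounded genes stayed within 1.5 times of 11744. The number of called genes did not: it was 252 to 280 with other scaling, no filter, no robust option, the legacy quasi-likelihood method, voom or a replicate block (261, 190 of them shared with the 263). It was 1 in the fit of all 18 libraries, 1242 with the DESeq2 Wald test, and 41 to 1141 when a library was left out. List genes called, 29 in the main comparison, numbered 1, 137, and 4 to 106 in the same order. The cause was not tested. Of 644 values of named genes under the alternatives, 435 kept their direction and call, 209 kept their direction without a call and 0 reversed. These genes were picked as called, and no called gene overlaps between the arms. Their direction could therefore hardly reverse in fits of the same libraries, and its being kept does not support the calls.

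Genes whose cKO effect differed between cryoinjury and sham, 1 in the main comparison, numbered 0 with lane as a covariate or with a replicate block, 3 in a fit of those 12 libraries, 5 with DESeq2, and 0 to 1 when a library was left out. Between cryoinjury and uninjured, 0 in the main comparison, they numbered 5 with DESeq2 size factors, 6 without the filter, 2 with a replicate block, 328 with the DESeq2 Wald test, and 0 to 103 when a library was left out.

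Same-numbered replicates were not shown to share a source, so the replicate block is given as a count only. With 3 libraries a group, the median 95% interval reached 0.5 to either side of a log2 fold change, and low genes were bounded less well. Lane 4 held all 6 libraries, so lane was not an alternative within them.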
